A study of Mus musculus with 6 samples.

Results

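Foxp3, the chains of the interleukin-2 (IL-2) receptor, the Janus kinases bound to them and the feedback inhibitors of that signal were followed here through 10 genes, which were Foxp3, Il2ra, Il2rb, Il2rg, Jak1, Jak3, Socs1, Socs2, Socs3 and Cish. The members were chosen by name, as all probe sets whose platform annotation gives 1 gene symbol and that symbol is among the 10. This gave 16 probe sets of 9 genes, out of 20380 probe sets with 1 symbol and 12393 genes in the table. No probe set listed in the annotation names Il2rg, which is not analysed here, and 2 probe sets that name Jak3 together with another gene were left out. The samples were total RNA of mouse CD4+CD25+ T cells on the C57BL6 background, hybridised to Affymetrix Mouse430a arrays with 1 array per sample. The 2 groups were 3 samples labelled wild type and 3 samples with the genotype HDAC3-fl/fl_FOXP3cre, that is, Hdac3 flanked by loxP sites and a Foxp3 Cre driver, referred to as Hdac3 deleted. The comparison asks what loss of this histone deacetylase does to regulatory T cells. A Cre under Foxp3 is meant to act in Foxp3-expressing cells and not in other cells that a CD4+CD25+ gate could hold. In which cells it acted here was not tested. The title and the genotype name Hdac3, while the source field of the same samples reads HDAC11 and the description field HDACII. Age, and whether the wild type mice carried a Cre, are not given in the sources used here. The labels do not say whether the samples are separate mice, and the p-values therefore reflect the variation among these 6 samples alone, possibly technical.

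Regulatory T cells make little IL-2 of their own and depend on IL-2 from other T cells, which they bind through a receptor of 3 chains. Il2ra encodes CD25, the alpha chain that raises affinity, Il2rb the beta chain and Il2rg the common gamma chain shared with other cytokine receptors. Jak1 sits on the beta chain and Jak3 on the gamma chain, and both phosphorylate STAT5, which enters the nucleus and supports Foxp3, the lineage factor of these cells, as well as Il2ra itself. Cish, Socs1, Socs2 and Socs3 belong to the SOCS family, which is induced by STAT factors and damps cytokine signals. CD25 was also the surface marker used to choose the cells, so the level of Il2ra is bound up with the gate.

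Levels are on the deposited log2 scale (mean ± SD, n = 3), and differences subtract the wild type mean from that of the Hdac3 deleted samples. A probe set is said to have risen or fallen where limma gave an adjusted p under 0.05 (Benjamini-Hochberg over all 22626 probe sets). The level of a probe set cannot be set against that of another, since probes bind with different strength, so no order of levels among the genes is given. Bacterial control probe sets spanned 2.37 to 5.16, which is used as the background range. The groups stood far apart over the whole array, with correlations of 0.996 to 0.998 within groups and 0.921 to 0.923 between them, and 57.6% of all probe sets passed the test. The targeted gene Hdac3 was 9.04 ± 0.028 and 8.49 ± 0.024 and fell by 0.55 (SE 0.056, limma adjusted p = 0.000125). Whether its probe set covers the deleted exons was not tested.

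Markers of other cell types moved with the groups. All 15 macrophage and monocyte markers were higher in the Hdac3 deleted samples, by 7.26 at the median, or by 7.04 when background means are raised to the top of that range. The sum of their linear values ran from 733 to 799 over the wild type samples and from 99066 to 102050 over the others, and 8 of the 15 were at background in the wild type samples. All 10 measured neutrophil markers were also higher, with sums of 262 to 351 and of 37588 to 38152, and S100a8, a neutrophil calcium-binding protein, was higher by at least 245-fold. Among dendritic cell markers 3 of 6 rose, and 3 of the 6 lay in the background range in both groups. Among erythroid and platelet markers 3 of 5 rose, and 2 of the 5 lay in that range in both groups. Ppbp, counted as risen, is 1 of these 2 (means of 3.81 and 4.99), so its call gives no readable direction. Of 2 CD8 T cell markers 1 fell. Over all genes 22% rose and 38% fell. The 9 T cell markers all fell. The mean of Cd247, Cd3d, Cd3e and Cd3g, the 4 CD3 genes, was 12.22 ± 0.043 in wild type samples and 10.75 ± 0.017 after Hdac3 deletion. The part of these shifts in the results on the 10 genes was not tested, and in bulk RNA fewer cells of a type and less RNA per cell cannot be told apart.

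Foxp3 could not be read from its probe set. The 3 wild type samples measured 4.01, 3.45 and 3.84 and the Hdac3 deleted samples 3.73, 3.51 and 3.81. All 6 values lay inside the background range and the groups overlapped. The difference was -0.08 (SE 0.15, 95% interval -0.44 to 0.28, limma adjusted p = 0.656). The lineage factor of regulatory T cells was thus not above background in either group, including wild type, on the 1 probe set that measures it. Whether the transcript is low or the probe set fails was not tested.

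Of the receptor chains, Il2ra rose on both of its probe sets and Il2rb differed little. On probe set 1420692_at Il2ra measured 9.25, 9.21 and 9.30 in wild type samples and 9.94, 9.98 and 9.97 after Hdac3 deletion. Every Hdac3 deleted sample was above every wild type sample, by more than the spread within either group. The difference was 0.71 (SE 0.058, limma adjusted p = 4.17e-05), or 1.63-fold, the largest rise among the 16 probe sets. On 1420691_at Il2ra measured 7.94, 7.99 and 8.17 in wild type samples and 8.39, 8.36 and 8.32 after Hdac3 deletion, again without overlap. This difference was smaller, 0.33 (SE 0.076, adjusted p = 0.00839), and it was 0.17 with median centring (adjusted p = 0.0781). The direction for CD25 was the same on both sets, while the size differed between them.

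Il2rb, the signalling chain that IL-2 shares with IL-15, measured 10.79, 10.71 and 10.76 in wild type samples and 10.94, 10.91 and 10.92 after Hdac3 deletion on 1448759_at. The groups did not overlap, and the rise of 0.17 (SE 0.056, limma adjusted p = 0.0341) was small. It did not pass the test in 5 of 6 fits that each left out 1 sample, all but the fit without wild type replicate 1 (adjusted p = 0.0641 to 0.104), nor with repeated quantile normalization (0.14, adjusted p = 0.0676) or median centring (0.01, adjusted p = 0.851). On the second set, 1417546_at, Il2rb measured 9.62, 9.86 and 9.81 in wild type samples and 9.81, 9.90 and 9.78 after Hdac3 deletion. Those groups overlapped, with a difference of 0.07 (95% interval -0.13 to 0.26, adjusted p = 0.497), and 0.27 with cyclic loess (adjusted p = 0.0174).

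Both kinases fell. Jak1 measured 11.07, 11.06 and 11.08 in wild type samples and 10.40, 10.38 and 10.35 after Hdac3 deletion on 1433803_at. The samples of each group lay close together and the groups were well apart. Jak1 fell by 0.69 on this set (SE 0.055, limma adjusted p = 3.48e-05), which is 1.62-fold lower. On 1433805_at it measured 11.70, 11.92 and 11.85 in wild type samples and 11.14, 11.15 and 11.10 after Hdac3 deletion, and fell by the same 0.69 (SE 0.074, adjusted p = 0.00017). The third set, 1433804_at, measured 10.10, 10.07 and 9.92 in wild type samples and 9.80, 9.82 and 9.71 after Hdac3 deletion. This fall was smaller, by 0.25 (SE 0.073, adjusted p = 0.0214), and it did not pass the test without wild type replicate 1 or 2 or without Hdac3 deleted replicate 1 or 3 (adjusted p = 0.0524 to 0.0708), nor with cyclic loess (-0.05, adjusted p = 0.639).

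Jak3, the partner of the gamma chain, measured 9.07, 9.22 and 9.25 in wild type samples and 8.75, 8.77 and 8.78 after Hdac3 deletion. All wild type samples were above all Hdac3 deleted samples. Jak3 fell by 0.41 (SE 0.067, limma adjusted p = 0.00157), or 1.33-fold. Jak3 and the Jak1 sets 1433803_at and 1433805_at also fell under median centring, cyclic loess and repeated quantile normalization. On the deposited scale the falls of these sets were smaller than the mean fall of the CD3 genes, which was 1.47.

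**Figure D1:**
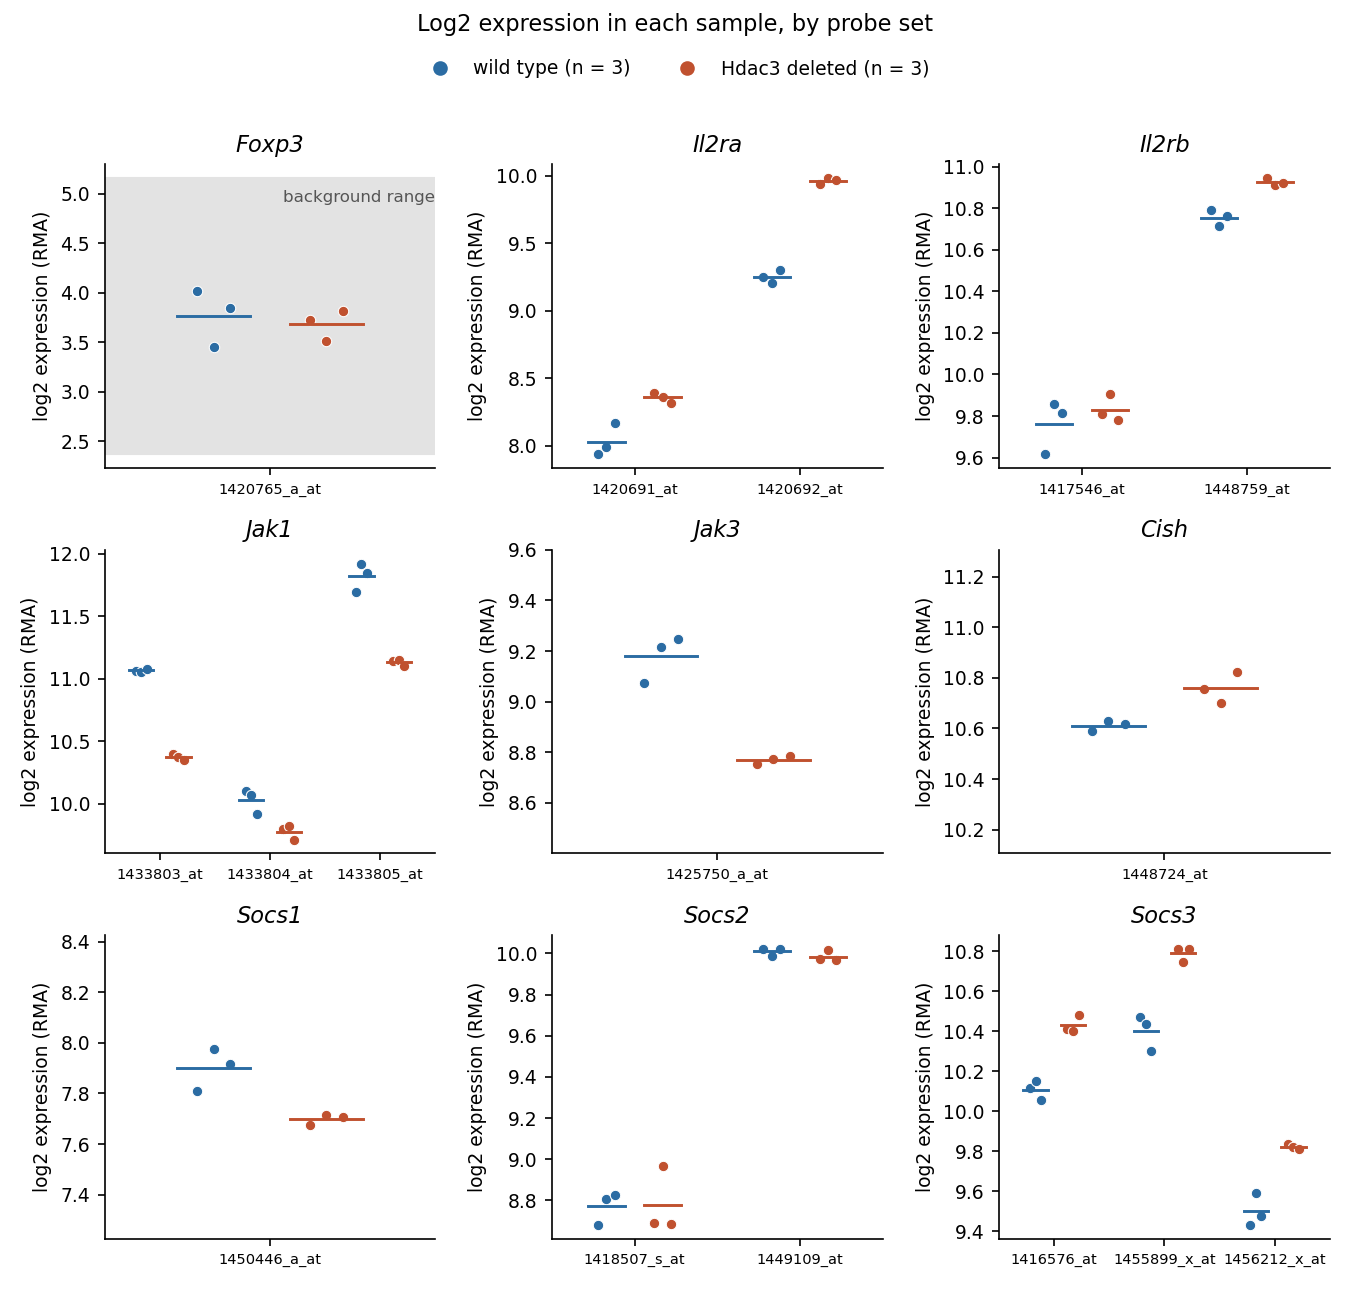
Log2 expression (RMA, vertical axes) of the 9 measured genes in each of the 3 wild type and 3 Hdac3 deleted samples, with 1 column per probe set, points for samples and bars for group means. Il2ra and Socs3 are higher in the Hdac3 deleted samples on every set, Jak1 and Jak3 are lower, and all 6 Foxp3 values lie in the background range of 2.37 to 5.16, shaded in its panel.

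The 4 inhibitors did not move together. Socs3, an inhibitor best known for damping STAT3 signals, rose on each of its 3 probe sets. On 1416576_at Socs3 measured 10.12, 10.15 and 10.05 in wild type samples and 10.41, 10.40 and 10.48 after Hdac3 deletion, a rise of 0.32 (SE 0.061, limma adjusted p = 0.00309). On 1455899_x_at it measured 10.47, 10.44 and 10.30 in wild type samples and 10.81, 10.75 and 10.81 after Hdac3 deletion, a rise of 0.39 (SE 0.068, adjusted p = 0.00225). On the third, 1456212_x_at, it measured 9.43, 9.59 and 9.47 in wild type samples and 9.84, 9.82 and 9.81 after Hdac3 deletion, a rise of 0.32 (SE 0.065, adjusted p = 0.00422). No set had overlapping groups, and the sets gave nearly the same size, although the _x_at sets can bind other transcripts as well. With median centring the rise passed the test on 1455899_x_at only (0.23, adjusted p = 0.0238), with adjusted p = 0.0502 and 0.0543 on the others.

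Socs1, which blocks the kinases directly, went the other way. It measured 7.81, 7.98 and 7.92 in wild type samples and 7.67, 7.71 and 7.71 after Hdac3 deletion. The groups did not overlap, and Socs1 fell by 0.20 (SE 0.066, limma adjusted p = 0.0326). The fall did not pass the test in 5 of 6 fits that each left out 1 sample, all but the fit without wild type replicate 1 (adjusted p = 0.0642 to 0.098), nor with cyclic loess (-0.03, adjusted p = 0.728).

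Cish, a STAT5 target that binds the activated receptor, measured 10.59, 10.63 and 10.62 in wild type samples and 10.75, 10.70 and 10.82 after Hdac3 deletion. All Hdac3 deleted samples were above all wild type samples, but the difference of 0.15 (SE 0.060, 95% interval 0.0047 to 0.29) did not pass the test (limma adjusted p = 0.0722). It was 0.36 with cyclic loess (adjusted p = 0.00224) and -0.01 with median centring (adjusted p = 0.858), and it passed with the methods' test (adjusted p = 0.0364), with a trended and robust variance prior (adjusted p = 0.00717) and without the dimmest probe sets (adjusted p = 0.0369). Socs2, known for damping growth hormone signals, measured 10.02, 9.99 and 10.02 in wild type samples and 9.97, 10.02 and 9.97 after Hdac3 deletion on 1449109_at. Its groups overlapped, and the 95% interval of the difference, -0.16 to 0.10, leaves room for a small change in either direction (adjusted p = 0.698). The call depended on the scaling, at -0.19 with median centring (adjusted p = 0.017) and 0.18 with cyclic loess (adjusted p = 0.0279). On 1418507_s_at Socs2 measured 8.68, 8.81 and 8.83 in wild type samples and 8.69, 8.96 and 8.68 after Hdac3 deletion, with a difference of 0.01 (adjusted p = 0.947).

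Promoters of Cish, Socs3 and Socs1 are shown because STAT5 drives this feedback, and they differ in the letters that STAT factors prefer. The motif searched was TTCNNNGAA, which reads the same on both strands, in windows from 250 bases before to 20 bases after the RefSeq transcript start (GRCm38.p6). The windows searched were 9, of 8 of the 10 genes, and those of Il2rb and Socs2 were not analysed here. The motif stood in 3 of the 9, against 7.58% of 32851 windows of the same length over all genes. The printed windows are those of the 2 inhibitors that hold it and, for comparison, of Socs1, the remaining inhibitor with a window, which has no match. Capitals mark the motif.
Cish promoter, chr9:107296409-107296678, plus strand: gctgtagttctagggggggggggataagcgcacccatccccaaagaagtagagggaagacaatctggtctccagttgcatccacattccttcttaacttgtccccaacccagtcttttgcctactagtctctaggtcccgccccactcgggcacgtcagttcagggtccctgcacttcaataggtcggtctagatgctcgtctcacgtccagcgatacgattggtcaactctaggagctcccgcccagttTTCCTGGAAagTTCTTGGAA
Socs3 promoter, chr11:117969347-117969616, minus strand: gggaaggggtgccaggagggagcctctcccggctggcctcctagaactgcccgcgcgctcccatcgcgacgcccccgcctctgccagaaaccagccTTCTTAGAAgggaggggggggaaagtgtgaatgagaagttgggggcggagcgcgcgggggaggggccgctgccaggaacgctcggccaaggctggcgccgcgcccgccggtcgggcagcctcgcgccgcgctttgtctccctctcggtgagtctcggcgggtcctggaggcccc
Socs1 promoter, chr16:10785517-10785786, minus strand: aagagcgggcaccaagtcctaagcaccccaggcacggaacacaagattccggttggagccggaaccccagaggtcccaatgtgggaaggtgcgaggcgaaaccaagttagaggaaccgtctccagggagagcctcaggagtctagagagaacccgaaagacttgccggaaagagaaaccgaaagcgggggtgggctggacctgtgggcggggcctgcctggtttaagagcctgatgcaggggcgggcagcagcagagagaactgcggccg
The Cish window holds 2 copies, which begin at bases 1 and 12 from the transcript start, and 0.368% of all windows hold 2 or more. The Socs3 window holds 1 copy, beginning at base -154. The third window with a match is 1 of the 2 Foxp3 windows, while the single windows of Il2ra, Il2rg, Jak1 and Jak3 have none. A match describes these letters and not a bound site. Whether the motif has a part in any of the differences was not tested.

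Taken over the 16 probe sets, 6 rose, 5 fell and 5 did not pass the test. Over all probe sets 20.1% rose and 37.4% fell, so by sets the falls lie near the background and the rises above it, without a test. Sets of the same gene are not separate results, and the 6 risen sets cover 3 of the 9 genes. The 5 fallen sets also cover 3 genes. Over all genes, read from 1 probe set each, 22% rose and 38% fell. The count of rises depends on the scaling too, since median centring left 2 risen sets while cyclic loess gave 9. The groups did not overlap on 12 of the 16 sets, against 64.6% of all probe sets. No member set passed the 2-fold threshold that the authors used beside an adjusted p under 0.05, where 12.2% of all probe sets did, and the methods' test gave the same count of 0. At an unadjusted p under 0.05, 12 of the 16 passed with limma, against 62.9% of all probe sets, and 12 with the methods' test. At a 1.5-fold threshold 3 member sets passed, 1 of Il2ra and 2 of Jak1, against 25.8% of all probe sets. The median within-group SD of the member sets was 0.064, against 0.11 over all probe sets. Of the 16 sets 15 lay above background in both groups, and this comparison was not matched for level.

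**Figure D2:**
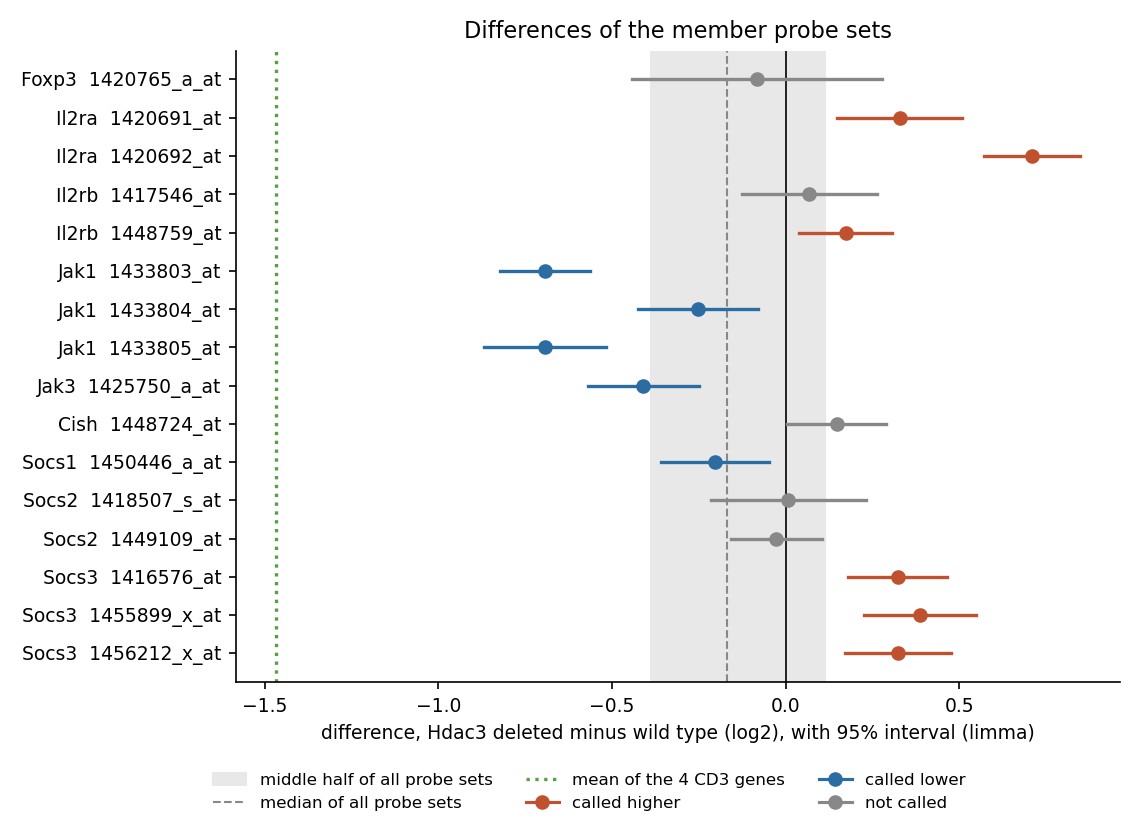
Difference of each of the 16 probe sets (horizontal axis, log2, Hdac3 deleted minus wild type) with its 95% interval from limma, coloured by call, n = 3 per group. The shaded band is the interquartile range of all probe sets, -0.39 to 0.11. The Il2ra and Socs3 sets, Il2rb on 1448759_at and Cish lie to its right. The Jak3 set and 2 of the Jak1 sets lie to its left, and the CD3 mean (dotted) far to the left at -1.47.

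The zero of these differences depends on the scaling. The median difference over all probe sets was -0.17 as deposited, -0.14 with repeated quantile normalization, -0.33 with median centring and -0.00063 with cyclic loess. Relative to the deposited median, the larger Il2ra difference lay at 0.88 and those of 1433803_at and 1433805_at for Jak1 lay at -0.52 and that of Socs1 at -0.04. With median centring 2 member sets rose and 6 fell, and with cyclic loess 9 rose and 3 fell. The share of called probe sets that were higher was 35% as deposited, 21.7% with median centring and 55.7% with cyclic loess over the whole array. Il2ra on 1420692_at, Socs3 on 1455899_x_at, Jak1 on 1433803_at and 1433805_at and Jak3 kept direction and call under all 4 of these scalings. When each array was centred on the CD3 genes instead, all 16 sets were higher, as were 98.6% of all probe sets. That centring adds 1.47 to every difference and to the median alike.

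**Figure D3:**
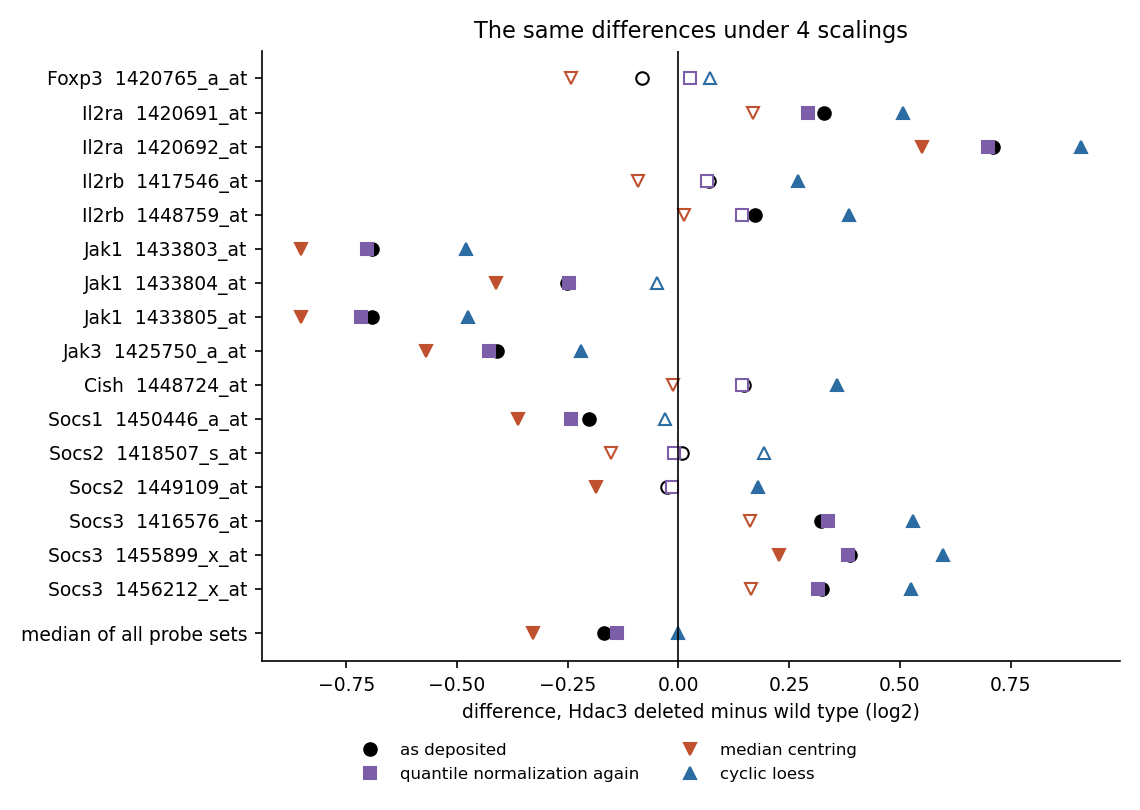
Differences of the 16 probe sets (horizontal axis, log2) as deposited and under 3 other scalings, with filled symbols for adjusted p under 0.05 and open symbols otherwise; the bottom line gives the median of all probe sets. The median of all probe sets lies at -0.33 with median centring and at -0.00063 with cyclic loess. Between these the smaller differences of Foxp3, Il2rb, Cish, Socs1 and Socs2 change side or call. The call also changes for Il2ra on 1420691_at, Jak1 on 1433804_at and Socs3 on 1416576_at and 1456212_x_at. Il2ra on 1420692_at, Jak1 on 1433803_at and 1433805_at, Jak3 and Socs3 on 1455899_x_at keep side and call.

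The rest of the pathway was read from 6 lists with 57 measured genes of 62, each gene by its brightest probe set. Of the 57 genes 15 rose, 23 fell and 19 did not pass, against 22% risen and 38% fallen over all genes (60% called), so the shares lie near the background. The median difference was -0.06, against -0.17 over all genes. Of the 57, 7 passed 2-fold, against 13.5% of all genes. The counts of the single lists below are to be read beside the same 22% risen and 38% fallen over all genes. A few genes stood far out from these small medians.

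Among the receptors that pair with the gamma chain, 2 of 5 rose and 1 fell. Il15ra, which holds IL-15 for presentation to neighbouring cells, rose from 7.33 ± 0.059 to 9.69 ± 0.026, by 2.36 (limma adjusted p = 1.13e-07), and by 1.51 on its second set. Il4ra, the IL-4 receptor alpha chain, rose by 0.58 (adjusted p = 0.000312), and by 0.73 on another set, while the last set differed by -0.26 (adjusted p = 0.106). Il7r, the IL-7 receptor, differed by 0.01 (adjusted p = 0.925), while its second set fell by 0.35 (adjusted p = 0.00535). Il21r, the IL-21 receptor, fell by 0.20 (adjusted p = 0.0177), a call lost without wild type replicate 2 or Hdac3 deleted replicate 1 or 2 (adjusted p = 0.0509 to 0.0577) and with cyclic loess (adjusted p = 0.868).

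Of the 6 gamma chain cytokines 1 rose, 1 fell and 3 lay in the background range in both groups. Il15 was 3.72 ± 0.37 in wild type, inside the background range, and reached 6.65 ± 0.059 after Hdac3 deletion, which is at least 2.82-fold higher (limma adjusted p = 7.18e-06). Il2 was at background in either group, with means of 4.44 ± 0.19 and 4.02 ± 0.10, so the call of a difference of -0.43 (adjusted p = 0.0125) gives no readable direction. Il7 also lay in that range in both groups, and the mean of Il21 went from 5.4 to 5.14 (adjusted p = 0.133). Il15 and Il15ra rose in the samples in which macrophage markers stood higher (median 7.26), and the part of those markers was not tested.

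Among the other Janus kinases and SOCS genes 1 of 6 rose and 2 fell. Jak2, the kinase of many myeloid growth factor receptors, fell by 0.70 (SE 0.063, limma adjusted p = 7.03e-05), as much as Jak1, and by 0.57 on its second set. Socs4 fell by 0.56 (adjusted p = 0.000546) and by 0.89 on a second set (adjusted p = 6.81e-05), while its last set lay in the background range in both groups (adjusted p = 0.1). Socs6 rose by 0.48 (adjusted p = 0.00605), while its second set lay in the background range in both groups (adjusted p = 0.0657). Socs5 differed by 0.20 (adjusted p = 0.0928), and its second set rose by 0.50 (adjusted p = 0.014).

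In the relay below the receptor 5 of 15 genes rose and 6 fell. Both STAT5 genes were lower. Stat5b fell by 0.36 (SE 0.056, limma adjusted p = 0.00115), and by 0.86 on its second set, but its brightest set did not pass with cyclic loess (-0.16, adjusted p = 0.0523). Stat5a fell by 0.19 (adjusted p = 0.0303), a call lost in 5 of 6 fits that each left out 1 sample, all but the fit without wild type replicate 1 (adjusted p = 0.0556 to 0.0904), and absent with cyclic loess (-0.00078, adjusted p = 0.993). Its second set overlapped between the groups and did not pass (-0.24, adjusted p = 0.24). Syk, a kinase of B cells and myeloid cells that can also bind the IL-2 receptor beta chain, rose from 5.37 ± 0.085 to 9.99 ± 0.056, by 4.62 (adjusted p = 1.06e-08). Akt1, the survival kinase, rose by 0.65 (adjusted p = 6.32e-05) and the adaptor Grb2 by 0.61 (adjusted p = 0.000119), although a second Grb2 set differed by -0.06 (adjusted p = 0.459). Of 6 B cell markers 3 rose in the same samples and 3 did not pass, against 22% risen and 38% fallen over all genes. Their median difference was 0.53, with Cd22 up by 2.45 and Blnk at least 6.05-fold. In both groups 2 of the 6 lay in the background range. Without wild type replicate 1 or 2, 1 of the 6 was called lower.

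Of 12 genes known as STAT5 targets 5 rose, 3 fell and 4 did not pass, against 22% risen and 38% fallen over all genes. Gzmb, the granule protease of cytotoxic cells, rose by 3.996 (SE 0.079, limma adjusted p = 3.39e-08), the lymphotoxin gene Lta by 1.41 (adjusted p = 1.15e-06) and the survival kinase gene Pim1 by 0.82 (adjusted p = 1.79e-05). Ccnd2, the D-type cyclin of lymphocytes, fell by 0.98 (adjusted p = 7.3e-06), and the other 6 of its sets fell too, with differences from -1.36 to -0.89. Among natural killer cell markers, which share genes with cytotoxic cells, 3 of 5 rose, with Gzma up by 3.74, against 22% of all genes. In both groups 2 of the 5 lay in the background range.

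Foxp3 partners and regulators were mostly lower, with 10 of 13 fallen, 1 risen and a median of -0.41, against 38% fallen, 22% risen and a median of -0.17 over all genes. With cyclic loess 7 of the 13 fell, where 49.5% of all probe sets were called and 55.7% of those called were higher. With centring on the CD3 genes none of the 13 fell, on a scale where 98.6% of all probe sets lay above 0. Foxp1, a forkhead factor of T cell quiescence, fell by 1.41 (SE 0.059, limma adjusted p = 1.28e-06), and the other 6 of its sets fell too, with differences from -1.86 to -0.58. Foxo1, which helps to switch on Foxp3, fell by 1.10 (adjusted p = 8.56e-06), the T cell factor Ets1 by 0.77 (adjusted p = 5.7e-05) and Nfatc1, a factor activated by calcium signals, by 0.76 (adjusted p = 2.25e-05). Foxo1 had other sets between -1.49 and -0.41, all of them lower. The CD3 genes fell by 1.47 in the same samples, whose part was not tested.

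**Figure D4:**
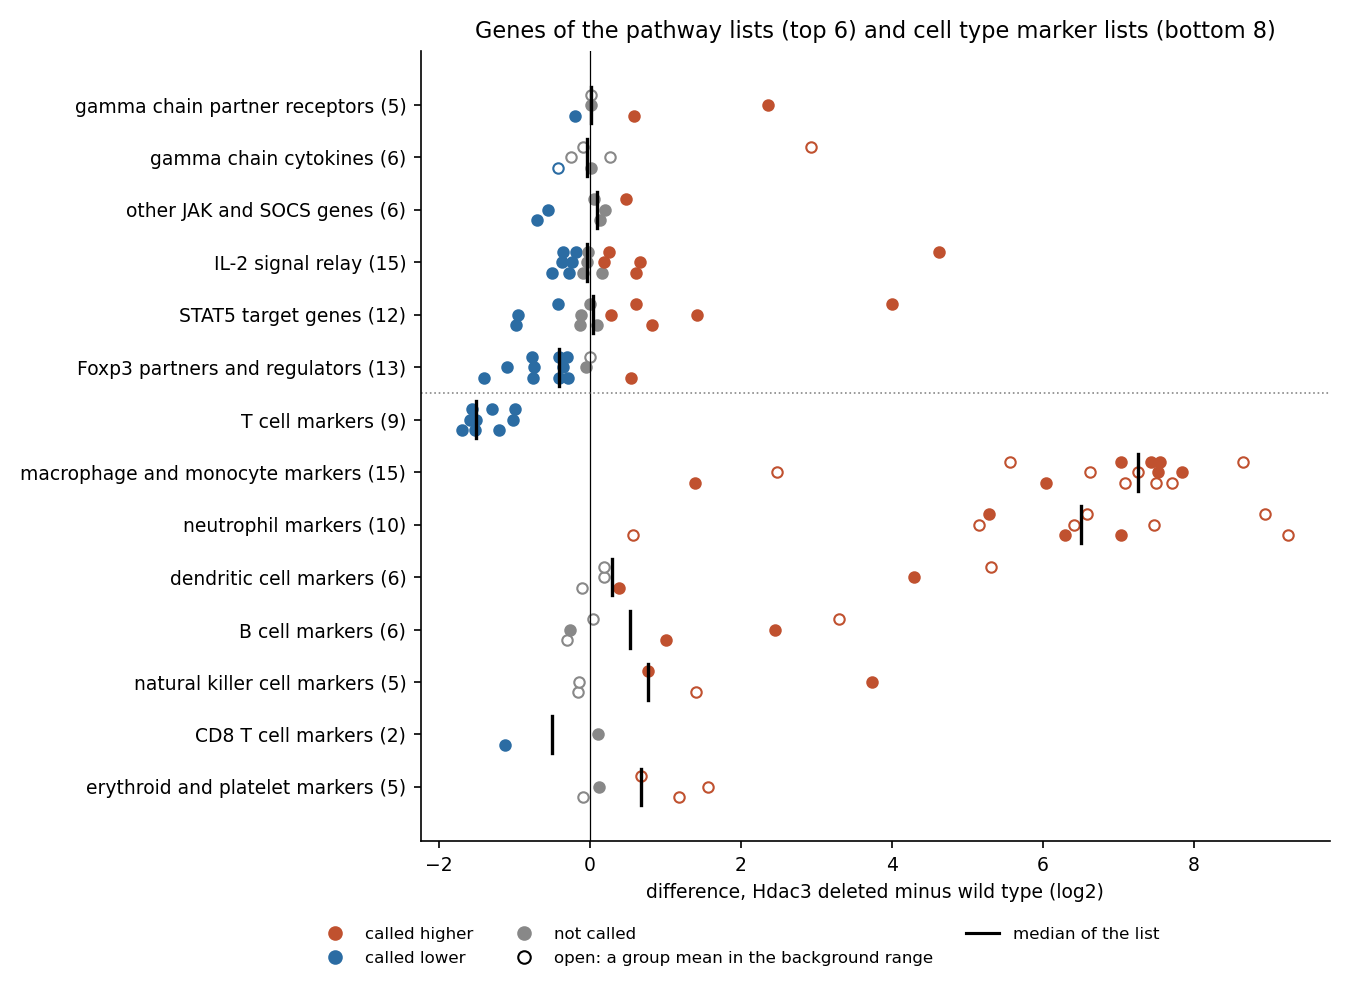
Differences (horizontal axis, log2, Hdac3 deleted minus wild type) of the measured genes of the 6 pathway lists and 8 marker lists, 1 point per gene, with open points where a group mean lay in the background range and a bar at each list's median. The pathway medians lie between -0.41 and 0.09, against 7.26 for macrophage and monocyte markers and -1.51 for T cell markers, and Syk, Gzmb, Il15 and Il15ra are the points beyond 2 in the pathway lists.

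By the root mean square distance between centred log2 values over the 6 samples, the genes nearest to Il2ra on 1420692_at were Rnf26 (0.017), Xpnpep1 (0.020) and Sptlc2 (0.024). Those nearest to Jak1 on 1433805_at, the set with the largest fall, were Ppp2r5c (0.025), Clec2d (0.029) and Atg12 (0.030). The 100th nearest gene was still within 0.063 and 0.061, so with 2 groups many genes shared these profiles.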

How the data were processed

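Each of 6 CD4+CD25+ T cell samples had biotin-labelled RNA on 1 Mouse430a array. The deposited table holds log2 values from robust multiarray averaging, run by the authors in MAYDAY 2.12 per the labels and the submitters' processing notes. Medians of the wild type arrays were 6.28 to 6.29 and those of the others 6.43 to 6.47, so the arrays as deposited do not share a distribution, and a change in total RNA cannot be seen on this scale. Values were used as deposited, without a filter on low values. The number of arrays limits the precision.

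Of 22690 probe sets, 64 Affymetrix controls were not tested. Of the remaining 22626, 20380 had 1 gene symbol in the platform annotation, 691 had several and 1555 had none; all 16 member sets matched RefSeq (GRCm38.p6) by Entrez identifier. The background range came from 27 bacterial control sets. Groups were compared two-sided with limma 3.58.1 (lmFit, eBayes) in R 4.3.3 in place of the authors' test, adjusted by Benjamini-Hochberg across the 22626. The fit was also run on simulated data in which few probe sets changed, which does not test the scaling or the calls made here. Genes of lists were read from their brightest probe set with 1 symbol. Plots used Python 3.11.15, pandas 2.3.3 and matplotlib 3.10.9.

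The members, lists and tests were chosen with earlier results of these data known. Named genes are all member sets, Hdac3, the CD3 genes, Il2, Stat5a, Stat5b, the 4 genes of each pathway list with the smallest p, up to 2 of each marker list by absolute difference, and the 3 genes nearest in profile to the largest rise and fall. Alternatives were the methods' test, the replicate number as a block, other scalings, a filter on dim probe sets, another variance prior, array weights, leaving out each sample, leaving out sets that match several transcripts, a 1.5-fold threshold and the mean of a gene's sets.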

Additional observations from a re-analysis of the deposited data

How the results depend on the processing

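The 16 member differences and the differences of the other named genes were recomputed under up to 16 alternatives each. Of the resulting member values 199 kept their direction and side of the threshold, 23 lost the call, 9 gained it and 21 changed sign; of those of the other named genes 660, 15, 14 and 18 did. With centring on the CD3 genes left aside, Il2ra on 1420692_at ranged from 0.55 to 0.91 and Jak3 from -0.57 to -0.22, all called. Jak1 ranged from -0.85 to -0.48 on 1433803_at and from -0.85 to -0.48 on 1433805_at, also all called. Centred on the CD3 genes, these sets were still called, with Il2ra at 2.18, while Jak1 and Jak3 turned from lower to higher.

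Centring on the CD3 genes gave 16 member sets higher, 0 lower and 14 past 2-fold, and 56 pathway genes higher and 0 lower. Differences below 0 as deposited that turned on that scale were Jak1 (0.77, 1.22 and 0.77), Jak3 (1.06), Socs1 (1.26), Socs2 on 1449109_at (1.44), Foxp3 (1.38), Ccnd2 (0.49), Cd8b1 (0.345), Ets1 (0.70), Foxo1 (0.36), Foxp1 (0.057), Hdac3 (0.91), Il2 (1.04), Il21 (1.21), Il21r (1.27), Jak2 (0.77), Nfatc1 (0.71), Socs4 (0.91), Stat5a (1.28) and Stat5b (1.11).

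Median centring called 2 member sets higher and turned Il2rb on 1417546_at (-0.092), Cish (-0.013), Socs2 on 1418507_s_at (-0.15), Cd8a (-0.056) and Il7r (-0.15). Cyclic loess called 3 member sets and 13 pathway genes lower and turned Foxp3 (0.071) and Socs2 on 1449109_at (0.18). Quantile normalization again turned Foxp3 (0.026) and Socs2 on 1418507_s_at (-0.0102), and array weights turned the same sets (0.0203 and -0.052). A 1.5-fold threshold called 3 member sets. Without 1 sample each, 3 to 4 member sets fell, with 3 without wild type replicate 2 or Hdac3 deleted replicate 1 or 3. Leaving out 1 sample gave ranges of -0.24 to 0.039 for Foxp3, -0.0051 to 0.12 for Il2rb on 1417546_at, -0.085 to 0.055 for Socs2 on 1418507_s_at and -0.0095 to 0.027 for Il7r. The causes were not tested.

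Groups share replicate numbers, but same-numbered samples did not deviate together (correlations 0.092, 0.084 and -0.19) and not every sample correlated best with its own number. With the replicate block 5 member sets rose and 4 fell, and 15 pathway genes rose and 21 fell. Among the member sets the calls of Il2rb on 1448759_at (adjusted p = 0.078) and Socs1 (adjusted p = 0.0566) were not made with that block. Brightness over background limits Foxp3 and Il2.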
